A study of Mus musculus with 6 samples.

Results

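Small nucleolar RNAs (snoRNAs) were followed in DP42 cells, which are mouse multiple myeloma cells, a cancer of plasma cells. Members were chosen by their symbol in the platform annotation: Snora and a digit for the H/ACA box class, Snord and a digit for the C/D box class. Probe sets that named several genes were left out, and the probe set with the highest mean was kept for each gene. This gave 73 of the 22180 genes tested, with 26 H/ACA and 47 C/D members. The 6 arrays held total RNA after 24 h of culture in 3 groups of 2: DP42 cells alone, with mouse B cells (the control co-culture of the design) and with mouse neutrophils. The neutrophils carry the note "IMC", which is not spelled out in the sources used here, and the array descriptions call them myeloid cells. The labels conflict on the sorted population: titles and source names of the co-culture arrays give the partner cell, while the cell type tag and descriptions give the myeloma cells, and they were read here as DP42. Co-cultured populations were separated by flow sorting before lysis in Trizol, while no sort is described for the cells alone. DP42 is a single cell line, and the labels do not say whether the 2 arrays of a group stem from separate cultures. The p-values then rest on a spread between arrays that may be only technical.

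SnoRNAs are short stable RNAs of the nucleolus. H/ACA snoRNAs pair with a target and guide the protein dyskerin to turn a uridine into pseudouridine, and C/D snoRNAs guide fibrillarin to methylate the ribose of the paired base. Most targets lie in ribosomal RNA, and a few snoRNAs take part in cutting the ribosomal RNA precursor instead of modifying it. In mammals most are cut out of introns of host genes, many of which encode ribosomal proteins or translation factors or have no coding role beyond their introns. Myeloma and plasma cells make large amounts of antibody and so carry many ribosomes.

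The reference sequences that could be printed for members are those that share their locus with a microRNA hairpin in RefSeq (GRCm38.p6). They are shown because signal from the snoRNA and from the hairpin cannot be told apart on such probe sets. The first also carries the class feature, while of Snora34 only a part is printed. Snora19 at chr19:60774330-60774385 lies wholly inside the Mir3084-2 hairpin, as bases 13 to 68 of its 69, and is given on the strand of that hairpin. In capitals is the ACA trinucleotide that ends 3 bases before its 3′ end, the hallmark for which H/ACA RNAs are named. For Snora34 the Mir1291 hairpin at chr15:98519762-98519878 (minus strand) is printed, and the capitals mark its bases 45 to 117, the 73 that lie in the annotated Snora34.
Snora19: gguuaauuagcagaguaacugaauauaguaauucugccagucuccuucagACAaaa
Mir1291: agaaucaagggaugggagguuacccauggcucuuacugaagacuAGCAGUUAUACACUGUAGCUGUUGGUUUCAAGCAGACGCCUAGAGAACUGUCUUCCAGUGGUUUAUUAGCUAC

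The annotated lengths went with the class labels. H/ACA members ran from 56 to 205 nt with a median of 118.5 nt, and C/D members from 48 to 221 nt with a median of 68 nt. All 73 gene identifiers were found in the GRCm38.p6 table, which lists 72 of them as snoRNAs and Snord73b as a small nuclear RNA. Another 27 snoRNA symbols (9 H/ACA and 18 C/D) were named only on probe sets with several genes and are not members, among them Snord14a, Snord32a, Snord33 and Snord34. Near-identical copies such as Snora73a and Snora73b, or Snord73a and Snord73b, may share probe signal, so values of such pairs are not independent.

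The values are the authors' log2 expression values, on which a difference of 1 is 2-fold. The mean level of 6 plasma cell markers ran from 7.90 to 7.98 over the 6 arrays and that of 7 mature B cell markers from 9.25 to 9.41. On the alone arrays the B cell markers Cd79b, Cd79a, Cd22 and Pax5 were bright, with means of 12.5, 12.15, 10.98 and 10.98. Cr2, Ms4a1 and Fcer2a were dimmer, at 6.79, 6.33 and 5.81. Of the plasma cell markers, Irf4, Xbp1 and Sdc1 stood at 10.79, 10.03 and 8.49, and Prdm1, Tnfrsf17 and Jchain at 6.74, 6.03 and 5.41. As several B cell markers are bright in DP42 cells alone, the B cell list cannot show whether B cells were carried over. By limma 0 of these 13 passed an adjusted p of 0.05 in any comparison, and at an unadjusted p under 0.05 there was 1 plasma cell marker higher and 1 B cell marker (Cr2) lower for neutrophils minus alone, where 5.97% and 11.7% of all genes were. For neutrophils minus B cells 1 plasma cell marker (Tnfrsf17) and again Cr2 were lower, where 12% were. Neutrophil markers had mean levels of 6.44 and 6.56 alone, 6.46 and 6.58 beside B cells and 6.98 and 7.0 beside neutrophils. Against alone, 12 of 13 stood higher with neutrophils and 1 lower. Arrays did not overlap, with neutrophils higher, for 11 of them, where 35.6% of all genes had such arrays. By limma 5 passed and were higher, among them the granule protein gene Ngp (from 5.57 and 5.76 to 7.27 and 7.70), where 1.49% of all genes passed. Olfactory and vomeronasal receptor genes, 1394 genes with no known role in plasma cells, had array medians of 5.51 and 5.43 alone, 5.14 and 5.49 beside B cells and 4.99 and 4.86 beside neutrophils. The B-cell arrays also differed most from each other: the median distance between the replicates over all genes was 0.16 there, against 0.08 alone and 0.09 with neutrophils. In such bulk RNA a change in the mix of cells and a change in RNA per cell cannot be told apart. The part of these shifts in the snoRNA values was not tested. The alternatives named beside the results show only how the values moved.

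Most snoRNAs gave clear signal in every group. Of the H/ACA members, 19 of 26 stood above the upper quartile of all genes on every array and 25 above the median. For the C/D members these counts were 26 and 37 of 47. Below the median on all 6 arrays were Snora19, Snord123, Snord1b, Snord61, Snord90 and Snord91a. Mean values over the arrays ran from 6.64 to 13.23 in the H/ACA class and from 5.62 to 12.59 in the C/D class. These are signals of different probe sets, and they do not rank the amounts of the RNAs.

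The 4 highest H/ACA signals came from Snora33, Snora75, Snora21 and Snora16a. Snora33, from an intron of the ribosomal protein gene Rps12, stood at 13.15 and 13.36 alone, 13.16 and 13.31 beside B cells and 13.24 and 13.14 beside neutrophils, so its 3 groups overlapped. Snora75, inside the nucleolin gene Ncl, stood at 12.83 and 12.71 alone, 12.29 and 12.66 beside B cells and 12.46 and 12.51 beside neutrophils, with both co-cultures below the alone arrays. In the C/D class the highest signals came from Snord82, Snord89, Snord49b and Snord53. Snord82, also inside Ncl, stood at 12.66 and 12.61 alone, 12.48 and 12.71 beside B cells and 12.63 and 12.46 beside neutrophils. Its groups overlapped, and no difference between them exceeded 0.09 in size.

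**Figure D1:**
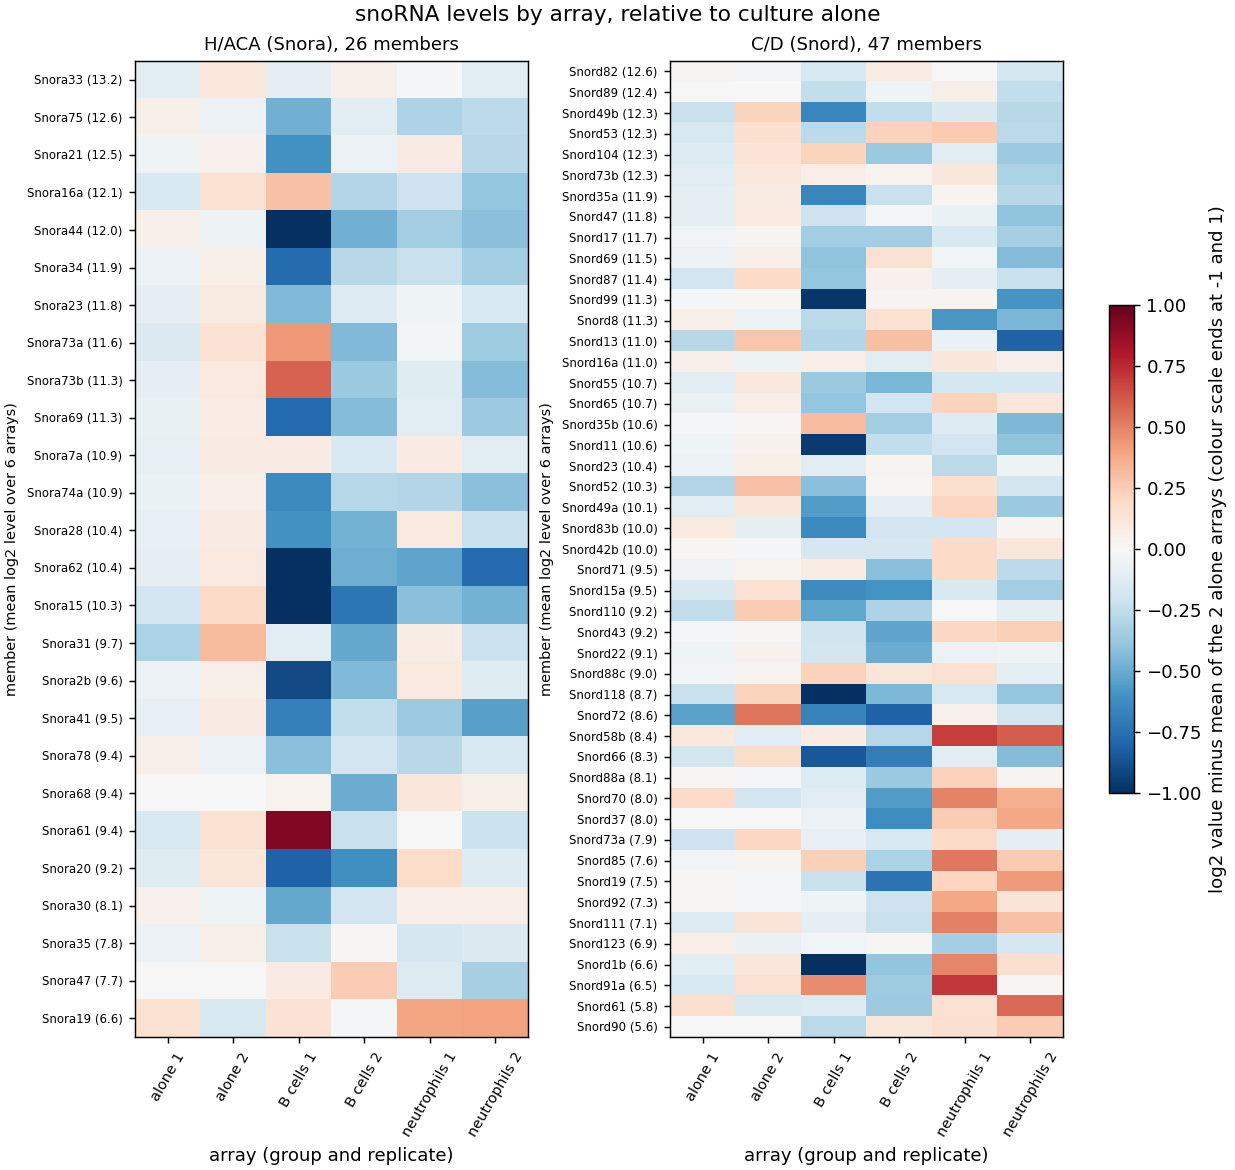
Log2 value of each snoRNA minus its mean on the 2 alone arrays, 1 row per member (ordered by its mean log2 level) and 1 column per array, H/ACA left and C/D right. Blue is lower and red higher, and the colour scale ends at -1 and 1. The B-cell columns are mostly blue in both classes, but replicate 1 holds deep blue and red members side by side.

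The median member stood below the alone mean on both B-cell arrays. On replicates 1 and 2 the median deviation from the alone mean was -0.46 and -0.28 for H/ACA snoRNAs and -0.22 and -0.23 for C/D snoRNAs. With neutrophils it was -0.08 and -0.24 for H/ACA and 0.06 and -0.17 for C/D. The alone arrays themselves lay 0.08 either side of their mean for H/ACA and 0.04 for C/D. The neutrophil arrays thus lay between the alone mean and the B-cell arrays for both classes, apart from C/D on replicate 1, which lay slightly above the alone mean.

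The first comparison asks what co-culture with B cells, the control partner, went with. By limma with Benjamini-Hochberg adjustment 0 of 73 snoRNAs passed an adjusted p of 0.05 for B cells minus alone, as did 0 of all genes (0%), and the lowest adjusted p among the members was 0.887. The direction was largely shared: 21 of 26 H/ACA and 43 of 47 C/D members stood lower with B cells. The median differences were -0.31 and -0.17, against -0.00 over all genes and -0.01 over the genes at or above the median brightness. At an unadjusted p under 0.05, 13 H/ACA and 16 C/D members were lower, where 2.3% of all genes were, and 0 were higher, where 1.61% of all genes were. Of the 11090 brighter genes 198 were lower at that p. The arrays of the groups did not overlap, with B cells lower, for 15 H/ACA and 21 C/D members, where 13.5% of all genes had such arrays, and with B cells higher for 1 member in each class, where 13.5% did too.

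Among H/ACA snoRNAs the largest difference of this comparison was that of Snora15, which lies inside the chaperonin gene Cct6a. Its values were 10.69 and 11.07 alone, 9.25 and 10.16 beside B cells and 10.46 and 10.41 beside neutrophils. It was lowest on B-cell replicate 1, and the B-cell arrays lay below all others. The difference was -1.18 ± 0.26 (SE, n = 2 arrays per group), 2.26-fold lower, with an adjusted p of 0.887 by limma.

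Snora62 (E2), inside the ribosomal protein gene Rpsa, stood at 10.81 and 11.01 alone, 9.81 and 10.42 beside B cells and 10.38 and 10.13 beside neutrophils. Both co-cultures lay below the alone arrays and overlapped each other. The difference was -0.80 ± 0.19 for B cells minus alone and -0.66 ± 0.19 for neutrophils minus alone, and neither passed (adjusted p by limma 0.948 and 0.142). Against this direction, Snora47 stood at 7.76 on both alone arrays, 7.84 and 8.01 beside B cells and 7.62 and 7.43 beside neutrophils. It was the only H/ACA member whose B-cell arrays both lay above the alone arrays.

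Among C/D snoRNAs the largest differences for B cells minus alone were those of Snord1b and Snord66. Snord1b, inside the long non-coding gene Snhg16, stood at 6.59 and 6.82 alone, 5.57 and 6.31 beside B cells and 7.19 and 6.87 beside neutrophils. Its signal was below the median of all genes on every array, and B-cell replicate 1 was again the lowest. Snord66, inside the translation factor gene Eif4g1, stood at 8.44 and 8.80 alone, 7.77 and 7.93 beside B cells and 8.51 and 8.19 beside neutrophils. Here both B-cell arrays were low and close together, the difference was -0.77 ± 0.15 (unadjusted p = 0.000803 and adjusted p = 0.887 by limma), and the neutrophil arrays overlapped the alone arrays. Snord88c was the only C/D member with both B-cell arrays above both alone arrays, at 9.17 and 9.06 against 8.91 and 8.97.

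Comparison of neutrophil with B-cell co-culture, which the design text treats as its control, gave the opposite direction. Of the members, 0 of 73 passed for neutrophils minus B cells by limma, where 0.0496% of all genes did, and the lowest adjusted p was 0.119. In this comparison 19 of 26 H/ACA and 36 of 47 C/D members stood higher with neutrophils, with medians of 0.17 and 0.28 against 0.01 over all genes and 0.13 over the brighter genes. At an unadjusted p under 0.05, 7 H/ACA and 19 C/D members were higher, where 8.1% of all genes were, and 1 and 2 were lower, where 12% were. Arrays did not overlap, with neutrophils higher, for 9 and 22 members, where 30% of all genes had such arrays, and with neutrophils lower for 1 and 2 members, where 26.7% did. Since most snoRNAs are bright, the brighter genes are the closer background: of these 11090 genes 1595 were higher at an unadjusted p under 0.05, and 5776 had non-overlapping arrays with neutrophils higher. Read against them, neither the 9 of 26 H/ACA nor the 22 of 47 C/D members is a larger share of non-overlapping arrays. By unadjusted p, however, the 7 of 26 H/ACA and 19 of 47 C/D members that were higher are a larger share. The 1 of 26 and 2 of 47 that were lower are near the share of the brighter genes, of which 436 were lower. This comparison shares its B-cell arrays with the one above, so the 2 directions are not independent of each other.

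The count of members passing turned on 1 array. Without B-cell replicate 1, 17 of 73 members passed for neutrophils minus B cells, 15 higher and 2 lower, but so did 24.6% of all genes, a share near that of the members. The lone B-cell array left is then taken to vary like the other groups. Of the 17, 12 C/D members were higher and Snord8 lower, while the H/ACA members were Snora20, Snora2b and Snora68 (higher) and Snora47 (lower). With only genes at or above the median brightness in the fit, 5 members passed, where 0.821% of those genes did, and with arrays centred on their medians 2 did, where 0.28% of all genes did. Quantile normalisation took the H/ACA median from 0.17 to 0.03.

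Snord58b, inside the ribosomal protein gene Rpl17, had the lowest adjusted p of any member. It stood at 8.31 and 8.10 alone, 8.29 and 7.92 beside B cells and 8.90 and 8.81 beside neutrophils. The neutrophil arrays were above all 4 others, while alone and B-cell arrays overlapped. The difference was 0.75 ± 0.14 against B cells (1.68-fold, adjusted p = 0.119 by limma) and 0.65 ± 0.14 against alone (1.57-fold, adjusted p = 0.0623 by limma). With the mean of the receptor genes as a covariate the difference against alone was 0.25 (adjusted p = 0.917 by limma). Its host Rpl17 differed by 0.35 and 0.25 in these comparisons, and did not pass either.

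Other C/D snoRNAs that stood higher with neutrophils than with B cells were Snord1b, Snord19 and Snord70. For Snord1b, whose values are given above, the difference was 1.09 ± 0.22, the largest of any member (adjusted p = 0.125 by limma). Snord19, inside the nucleolar protein gene Gnl3, stood at 7.58 and 7.55 alone, 7.34 and 6.83 beside B cells and 7.78 and 7.99 beside neutrophils. Its 3 groups did not overlap, in the order B cells, alone, neutrophils. Snord70, inside Nop58, which encodes a core protein of C/D particles, stood at 8.15 and 7.76 alone, 7.84 and 7.40 beside B cells and 8.45 and 8.32 beside neutrophils. Its neutrophil arrays lay above the other 4, which overlapped.

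In the H/ACA class Snora20, inside the chaperonin gene Tcp1, showed both parts of the pattern. It stood at 9.31 and 9.55 alone, 8.62 and 8.82 beside B cells and 9.61 and 9.30 beside neutrophils. The B-cell arrays were low and close to each other, and alone and neutrophil arrays overlapped. The difference was 0.73 ± 0.14 for neutrophils minus B cells (adjusted p = 0.123 by limma) and -0.71 ± 0.14 for B cells minus alone (adjusted p = 0.887).

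Of the members, 7 H/ACA and 11 C/D stood lower with neutrophils than with B cells, and 3 of these 18 had arrays that did not overlap. Snord8 stood at 11.57 and 11.45 alone, 11.24 and 11.66 beside B cells and 10.93 and 11.05 beside neutrophils, below all other arrays. The difference was -0.45 ± 0.14 against B cells (adjusted p = 0.178) and -0.52 ± 0.14 against alone (adjusted p = 0.123), both by limma. Snord123 differed by -0.24 and Snora47 by -0.39 against B cells, both with arrays that did not overlap.

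**Figure D2:**
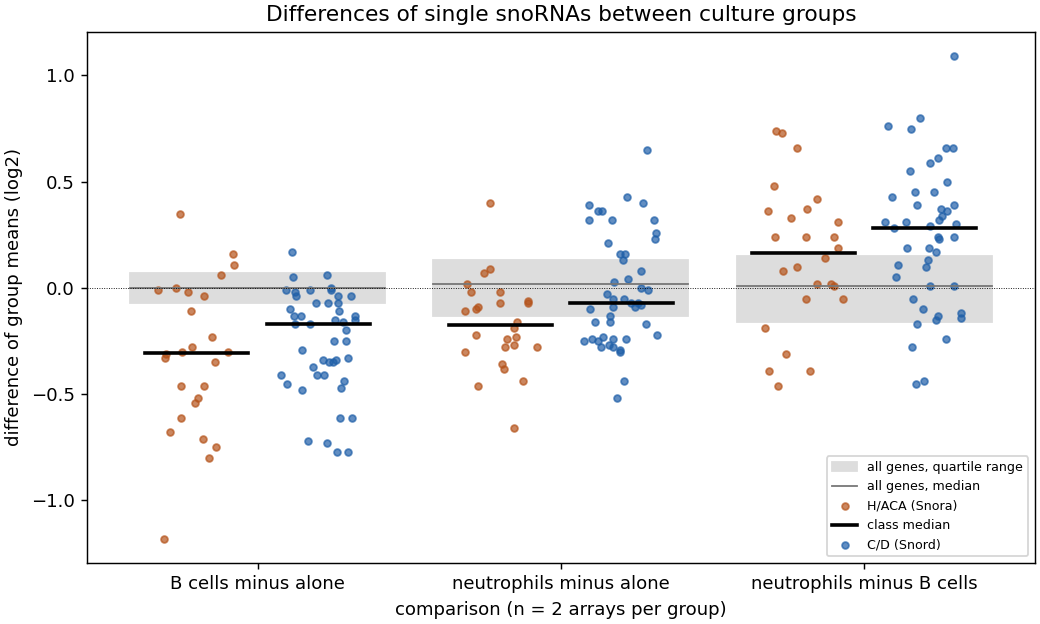
Difference of group means (log2) for each of the 26 H/ACA and 47 C/D snoRNAs in the 3 comparisons, with 2 arrays per group. Each point is a member, black bars are class medians, and grey boxes and lines give the quartile range and median over all genes tested. Class medians lie below the grey line for B cells minus alone (-0.31 and -0.17) and above it for neutrophils minus B cells (0.17 and 0.28).

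Against cells cultured alone, H/ACA snoRNAs stood mostly lower with neutrophils, and C/D snoRNAs lay on both sides of 0. By limma 0 of 73 members passed for neutrophils minus alone, where 1.49% of all genes did. The H/ACA median was -0.17, with 4 members higher and 22 lower, and the C/D median was -0.07, with 18 higher and 29 lower, against 0.02 over all genes and 0.11 over the brighter genes. At an unadjusted p under 0.05, 1 H/ACA and 4 C/D members were higher, where 5.97% of all genes were, and 4 and 3 were lower, where 11.7% were. Arrays did not overlap, with neutrophils higher, for 3 and 14 members, where 35.6% of all genes had such arrays, and with neutrophils lower for 13 and 7, where 27.4% did. Of the 11090 brighter genes, 300 were lower and 1064 higher at an unadjusted p under 0.05, and 1094 had lower and 6661 higher non-overlapping arrays. Against these the lower H/ACA members, 13 of 26 by arrays and 4 of 26 by unadjusted p, are the larger share. The lower C/D members, 7 of 47 by arrays and 3 of 47 by unadjusted p, are a larger share too, by less. When only the 4 arrays compared were fitted, 4 members passed, where 6.03% of all genes did: Snord58b was higher, and Snora62, Snora44 and Snord8 were lower. Leaving out either B-cell array gives this same fit, since a lone B-cell array adds nothing to the estimate of spread. The C/D median changed sign when alone replicate 2 (0.02) or neutrophil replicate 2 (0.06) was left out.

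The sign of these class medians also changed in a fit with the receptor genes. Within groups, their array mean differed most between the B-cell arrays (5.27 and 5.59). It was 5.56 and 5.51 alone and 5.13 and 5.05 with neutrophils. The slope of the covariate thus rests largely on the gap between the B-cell arrays, so this fit cannot show what the receptor shift adds. With the array mean of these receptor genes as a covariate, the H/ACA median for neutrophils minus alone went from -0.17 to 0.17 and the C/D median from -0.07 to 0.01. Under that covariate Snora62 went to 0.19, Snora41 to 0.15, Snord11 to 0.69, Snord8 to 0.01 and Snord70 to -0.01, each with the opposite sign to its difference without it. For B cells minus alone the medians kept their sign, at -0.26 and -0.19.

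Snora19 and Snora68 went against most of their class in this comparison, and Snora41 with it. Snora19 stood at 6.64 and 6.33 alone, 6.63 and 6.47 beside B cells and 6.88 and 6.89 beside neutrophils, highest in the neutrophil arrays. Its difference of 0.40 ± 0.12 (adjusted p = 0.160 by limma) is that of a dim probe set over the sequence printed above, which lies within a microRNA hairpin. Snora68 differed by 0.09, and by -0.05 after quantile normalisation and -0.58 with the receptor covariate. Snora41, inside the elongation factor gene Eef1b2, stood at 9.70 and 9.87 alone, 9.10 and 9.54 beside B cells and 9.42 and 9.24 beside neutrophils. Both co-cultures lay below its alone arrays, each by 0.46.

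The class difference itself was small. The C/D median deviation minus the H/ACA median deviation was 0.24 and 0.05 on the B-cell arrays and 0.14 and 0.07 on the neutrophil arrays, against 0.04 and -0.04 on the alone arrays. It was thus above the alone arrays on all 4 co-culture arrays, but B-cell replicate 2 hardly exceeded alone replicate 1, and the B-cell replicates lay far apart. All these deviations are from the mean of the same alone arrays. The alone values therefore mirror each other by construction, and the 4 co-culture values are not independent. The class medians of the differences lay 0.13 apart for B cells minus alone. With the receptor covariate the order turned for neutrophils minus B cells (-0.09) and neutrophils minus alone (-0.15). No test was made of this gap, since members of a class share arrays and are not replicates.

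The spread between replicates was wider for snoRNAs than for genes at large. The median distance between B-cell replicates was 0.39 for H/ACA and 0.37 for C/D members, against 0.17 and 0.18 alone and 0.18 and 0.22 with neutrophils. More than 0.5 apart were 9 of 26 H/ACA (34.6%) and 12 of 47 C/D members (25.5%) in the B-cell group, where 4.57% of all genes were. The sign of the distance varied by member: Snora61 stood 1.16 higher on B-cell replicate 1 than on replicate 2, and Snord99 stood 1.00 lower.

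These opposite shifts occurred within 1 host gene. Snhg12 is a long non-coding gene whose span holds 4 members. Snora61 stood at 9.17 and 9.48 alone, 10.25 and 9.10 beside B cells and 9.32 and 9.11 beside neutrophils. Snora44 stood at 12.39 and 12.29 alone, 11.32 and 11.86 beside B cells and 11.99 and 11.92 beside neutrophils. Snord99 stood at 11.56 and 11.60 alone, 10.61 and 11.61 beside B cells and 11.61 and 10.99 beside neutrophils. On B-cell replicate 1, then, Snora61 was at its highest and Snora44 and Snord99 at their lowest. The fourth, Snora16a, was also highest there (12.44, with 11.86 on replicate 2), and the Snhg12 transcript itself stood at 9.90 and 9.85 alone, 9.71 and 9.65 beside B cells and 10.04 and 9.95 beside neutrophils.

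Snhg3, another long non-coding host, holds both U17 genes, whose RNA takes part in early cuts of the ribosomal RNA precursor. Snora73a stood at 11.56 and 11.85 alone, 12.14 and 11.26 beside B cells and 11.68 and 11.35 beside neutrophils. Snora73b stood at 11.26 and 11.46 alone, 11.95 and 10.99 beside B cells and 11.24 and 10.93 beside neutrophils. Both were at their highest on B-cell replicate 1 and near or at their lowest on replicate 2, and as near-identical copies they may not have separate probe signals. The Snhg3 transcript did not follow them: it stood at 11.22 and 11.24 alone, 11.13 and 11.02 beside B cells and 11.39 and 11.38 beside neutrophils. Its 3 groups did not overlap, and it differed by 0.31 for neutrophils minus B cells, which did not pass (adjusted p = 0.174 by limma).

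**Figure D3:**
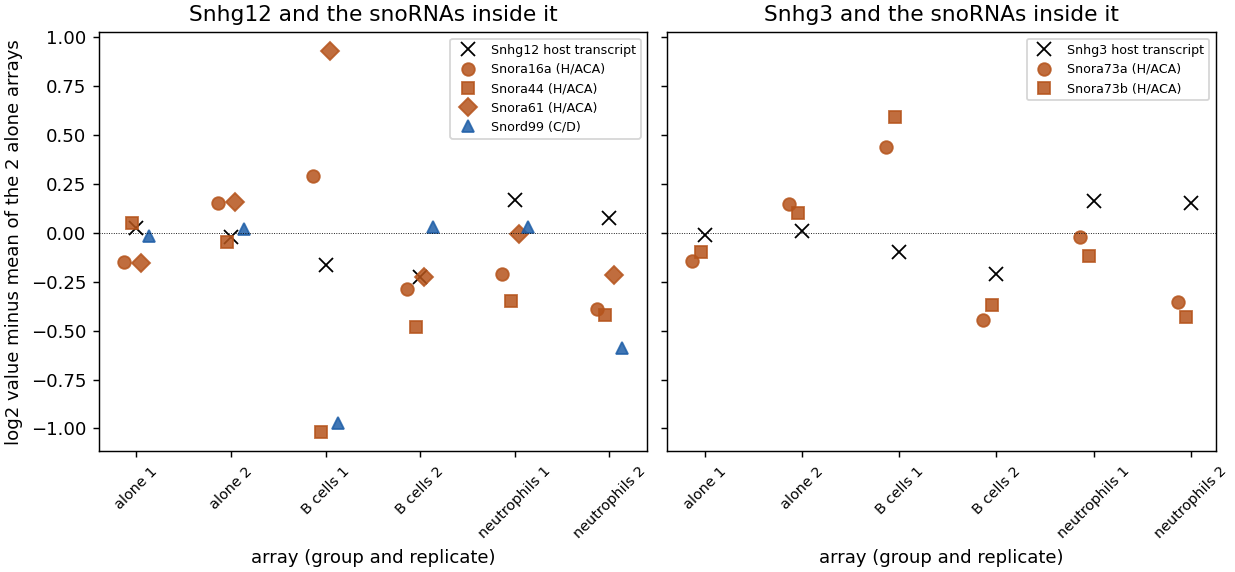
Log2 value minus the mean of the 2 alone arrays for the hosts Snhg12 and Snhg3 (crosses) and the snoRNAs inside them (coloured symbols), by array. On B-cell replicate 1 the members of Snhg12 lie on both sides of their host, Snora61 above and Snora44 and Snord99 below, and Snora73a and Snora73b lie above Snhg3.

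Windows around the annotated starts of these hosts are given because these hosts hold the members that stood apart on B-cell replicate 1. They are from RefSeq (GRCm38.p6), 250 bases before the start in lower case and 50 bases after it in capitals. Snhg12 lies at chr4:132308428-132308727 on the plus strand and Snhg3 at chr4:132353637-132353936 on the minus strand.
Snhg12: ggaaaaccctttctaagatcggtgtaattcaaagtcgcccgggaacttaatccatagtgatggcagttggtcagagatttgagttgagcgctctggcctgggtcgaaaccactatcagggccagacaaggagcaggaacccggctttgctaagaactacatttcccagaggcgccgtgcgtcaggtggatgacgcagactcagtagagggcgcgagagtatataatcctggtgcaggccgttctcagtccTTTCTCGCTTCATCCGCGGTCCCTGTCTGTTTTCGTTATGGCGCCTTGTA
Snhg3: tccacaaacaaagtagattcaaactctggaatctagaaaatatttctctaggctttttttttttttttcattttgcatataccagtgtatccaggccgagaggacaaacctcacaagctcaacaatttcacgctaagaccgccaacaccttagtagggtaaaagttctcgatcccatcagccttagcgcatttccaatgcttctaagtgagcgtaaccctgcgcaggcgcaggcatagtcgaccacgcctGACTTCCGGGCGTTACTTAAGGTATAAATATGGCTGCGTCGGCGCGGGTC
The letters TATAAA, searched on both strands, were found in the Snhg3 window and not in that of Snhg12. In the Snhg3 window they lie in the capitals, after the annotated start. Shortly before its start the Snhg12 window holds tatataa, a near variant that the search did not count. They occur in 13.6% of all 32851 such windows and in 25% of the 48 windows of snoRNA hosts. CACGTG, the E-box that Myc can bind, was in neither window, in 7.15% of all windows and in 22.9% of host windows. These are matches of letters, not sites.

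Taking all hosts, 70 of the 73 members lay within the span of an annotated gene, 50 in protein-coding and 20 in long non-coding genes, with 18 in genes of ribosomal proteins. Snord118, Snord13 and Snord89 lay in none. The gene table gives no strand, so a containing gene was taken as host by position alone. For 57 members the host was measured, 43 hosts in all, and 0 hosts passed the limma test in any comparison. At an unadjusted p under 0.05 there were 2 of 43 hosts lower for B cells minus alone (2.3% of all genes), 1 higher for neutrophils minus alone (5.97%) and 5 higher for neutrophils minus B cells (8.1%). For B cells minus alone the hosts had a median of -0.08 against -0.29 for their members, and 41 of 57 members stood below their host. For neutrophils minus alone these values were 0.06 and -0.07, again with 41 of 57 below, and 31 members had the opposite sign to their host. For neutrophils minus B cells the medians were 0.12 and 0.24, and 21 members stood below. The brighter genes had medians of -0.01, 0.11 and 0.13 in the same order, so the host median for neutrophils minus B cells was that of bright genes in general.

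Members of a shared host did not keep together throughout. Of 11 hosts with 2 or more members, 5 held members of opposite sign for neutrophils minus alone, 5 for neutrophils minus B cells and 4 for B cells minus alone. Inside Nop58, Snord70 differed by 0.43 and Snord11 by -0.30 for neutrophils minus alone. Inside Gnl3, Snord19 differed by 0.32 and Snord69 by -0.23.

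Within each class, length and signal went with the difference for neutrophils minus alone. C/D members under the class median of 68 nt had a median difference of 0.08, with 11 higher and 11 lower, and those of 68 nt or more had -0.10, with 7 higher and 18 lower. H/ACA members under 118.5 nt had -0.07, and the 13 longer ones had -0.22 and were all lower. By signal, C/D members below the class median of 10.02 had 0.21 with 15 of 23 higher, and those above it had -0.16 with 3 of 24 higher. Spearman's rho with the difference was -0.47 for length and -0.60 for signal over 47 C/D members, and -0.46 and -0.36 over 26 H/ACA members. For neutrophils minus B cells rho with length and signal was -0.51 and -0.62 over the C/D and -0.39 and -0.15 over the H/ACA members, and this comparison shares the neutrophil arrays. For B cells minus alone rho with length was 0.22 and 0.10, and with signal 0.10 and -0.08. All points share the same 6 arrays, and length and signal were themselves related (rho 0.24 and 0.42), so these are descriptions of the members and not tests.

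**Figure D4:**
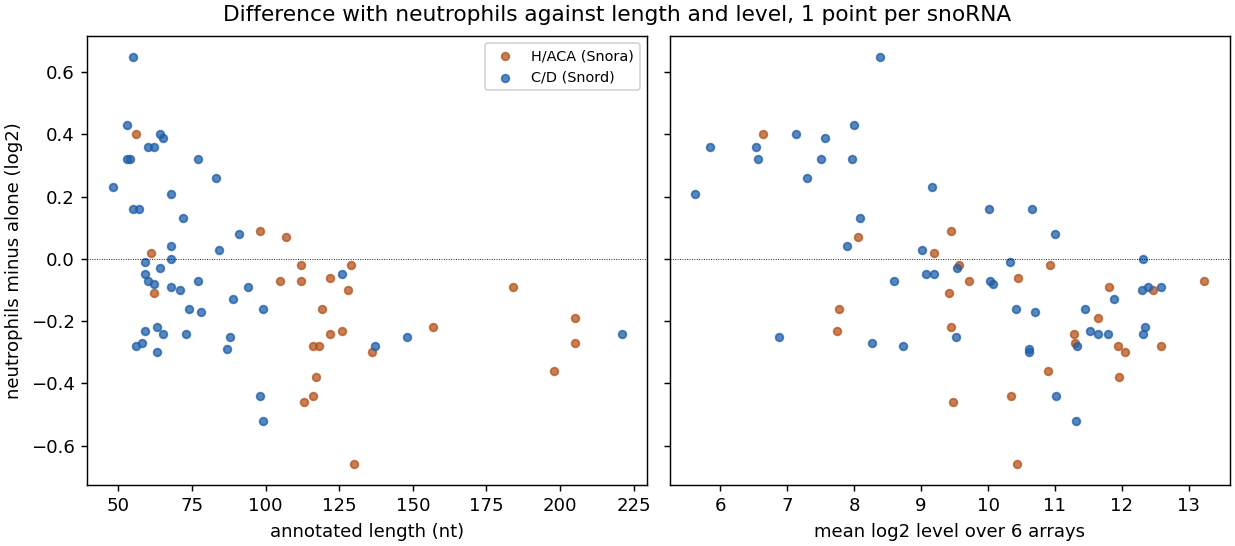
Difference for neutrophils minus alone (log2) against annotated length in nt (left) and mean log2 value over 6 arrays (right), 1 point per snoRNA, coloured by class. Of the points above 0, 18 are C/D and 4 are H/ACA members. The correlation with signal over the 47 C/D members was -0.60.

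SnoRNAs with a part in maturing ribosomal RNA did not all share a pattern. Snord118, Snord22 and U3 had both B-cell arrays below both alone arrays. Snord13 and the U17 RNAs given above did not. Snord118 (U8), needed to mature the large subunit RNAs, stood at 8.84 and 9.28 alone, 8.06 and 8.61 beside B cells and 8.90 and 8.67 beside neutrophils. Its B-cell arrays lay below all others, with a difference of -0.72 ± 0.20 against alone that did not pass (unadjusted p = 0.00615 by limma). Snord13 (U13), which acts on the small subunit RNA, stood at 10.88 and 11.44 alone, 10.87 and 11.46 beside B cells and 11.09 and 10.35 beside neutrophils, so its groups overlapped. Snord22 (U22), inside Snhg1 and also acting on the small subunit RNA, stood at 9.16 and 9.24 alone, 9.02 and 8.70 beside B cells and 9.14 and 9.16 beside neutrophils. Its B-cell arrays were lowest, 0.34 below alone, while alone and neutrophil arrays overlapped. U3, listed under the older symbol Rnu3a and so no member, stood at 10.59 and 10.94 alone, 10.12 and 9.10 beside B cells and 10.45 and 9.88 beside neutrophils, both co-cultures below alone.

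Among guides of known hosts, Snord35a from Rpl13a stood at 11.99 and 12.17 alone, 11.43 and 11.86 beside B cells and 12.11 and 11.80 beside neutrophils. Its B-cell arrays were below the alone arrays, and its neutrophil arrays overlapped both groups. Snord47 from Gas5 stood at 11.82 and 12.01 alone, 11.71 and 11.90 beside B cells and 11.85 and 11.51 beside neutrophils, with all groups overlapping. Snord17, inside the sorting nexin gene Snx5, stood at 11.82 and 11.88 alone, 11.50 on both B-cell arrays, and 11.70 and 11.52 with neutrophils, and its 3 groups did not overlap. Its difference was -0.35 ± 0.10 for B cells minus alone and -0.24 ± 0.10 for neutrophils minus alone, and neither passed. The imprinted brain-rich families Snord115 and Snord116 were not among the members.

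The proteins of the particles did not pass either. Of the H/ACA proteins, 0 of 6 passed in any comparison: the pseudouridine synthase Dkc1, its partners Nhp2, Nop10 and Gar1, and the assembly factors Naf1 and Shq1. At an unadjusted p under 0.05 this list had 2 of 6 higher for neutrophils minus B cells (8.1% of all genes), 1 higher for neutrophils minus alone (5.97%) and 1 lower for B cells minus alone (2.3%). Their median differences were 0.24 for neutrophils minus alone, 0.20 for neutrophils minus B cells and -0.04 for B cells minus alone, against 0.11, 0.13 and -0.01 for the brighter genes. Naf1 stood at 9.61 and 9.51 alone, 9.60 and 9.34 beside B cells and 9.80 and 9.84 beside neutrophils. For neutrophils minus alone the H/ACA RNAs, with a median of -0.17, and 5 of their 6 proteins thus lay on opposite sides of 0.

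Of the C/D core proteins (fibrillarin was not analysed here), Nop56, Nop58 and Snu13 were measured and 0 of 3 passed, with medians of 0.04, 0.12 and -0.08 in the same order of comparisons and 0 at an unadjusted p under 0.05. Of 13 shared assembly and maturation factors, such as the ATPases Ruvbl1 and Ruvbl2 and the exosome nuclease Exosc10, 0 passed, with medians of 0.09, 0.17 and -0.07. At an unadjusted p under 0.05 this list had 1 member, Znhit3, lower for B cells minus alone. A list of 18 snoRNA host genes, mostly long non-coding, held Snhg genes, Zfas1, Rian and Taf1d. Of these 1 passed for neutrophils minus alone, where 1.49% of all genes did. It was Snhg14, lower with neutrophils than alone, with a difference of -1.33 (adjusted p = 0.0343 by limma). Snhg14 stood at 6.54 and 6.09 alone, 5.65 and 6.38 beside B cells and 4.98 and 5.0 beside neutrophils. Its signal was dim, and like the medians of the receptor genes it was lowest on the neutrophil arrays and next lowest on B-cell replicate 1. The part of that shift in its value was not tested.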

How the data were processed

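Total RNA on 6 Affymetrix arrays was analysed. The deposited table holds log2 expression values that the authors made with RMA according to the submitters' processing notes. This method subtracts background, normalises between arrays and summarises probes, which hides any shift that most genes share. Values of 3.04 to 14.03 fit a log2 scale, and further centring is not stated. The array model and software version are not given in the sources used here. No detection call was used, and the number of arrays limits the precision.

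Of 41345 probe sets, 23521 had 1 gene in the platform annotation, 1814 several and 16010 none here. A model of group means over all 6 arrays was fitted by limma 3.58.1 (R 4.3.3; 3 residual degrees of freedom, prior 5.55), with eBayes, two-sided, and Benjamini-Hochberg adjustment over 22180 genes at 0.05. The fit was tested on simulated data. The members, gene lists and tests were chosen with earlier results of these data known.

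Named members were the 4 brightest per class, per comparison, class and direction the 2 with the largest difference and non-overlapping arrays (none passed), and fixed snoRNAs of known role. Named outside this rule, after their values were seen, were Snora2b, Snora34, Snora44, Snora61, Snord69, Snord99, Snhg12, Snhg3, Snhg14, Rnu3a, Naf1, Znhit3, Cr2, Tnfrsf17, the other cell type markers and the other related RNAs. The host was the smallest annotated gene, microRNAs apart, around a member, a rule also set after the data were seen.

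Alternatives were a brightness filter, quantile normalisation, trended and robust eBayes, median centring, averaged probe sets, fits of 4 arrays, a replicate block, leaving out each array, a receptor covariate and an adjusted p under 0.10. Adding snoRNA probe sets with several genes was chosen after seeing the data. Figures used matplotlib 3.10.9 under Python 3.11.15.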

Additional observations from a re-analysis of the deposited data

How the results depend on the processing

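Group differences of snoRNAs rest on 2 arrays per group, so 1 array can decide a count. For neutrophils minus B cells the count of members passing went from 0 to 5 in a fit of the brighter genes alone and to 2 with arrays centred on their medians, and it ran from 0 to 17 when each array was left out. For neutrophils minus alone it went from 0 to 1 at an adjusted p under 0.10, with the brightness filter and with trend and robust settings. It was also 1 with median centring and with snoRNA probe sets of several genes added. With only the 4 arrays compared it went to 4, where 6.03% of all genes passed. For the settings with 1 member passing the share of all genes was not counted. In the main fit that share was 1.49%, so these counts are not read as results about the members. Leaving out either B-cell array repeats that fit of 4 arrays. The single RNA passing was Snord58b (higher), except with the probe sets of several genes, where it was a lower C/D snoRNA and Snord58b did not pass. For B cells minus alone it was 0 under all of these.

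Leaving out each array moved the H/ACA median between 0.08 and 0.25 for neutrophils minus B cells, -0.24 and -0.08 for neutrophils minus alone, and -0.46 and -0.28 for B cells minus alone. The C/D median ran between 0.17 and 0.36, -0.17 and 0.06, and -0.27 and -0.16, and the C/D minus H/ACA gap between 0.06 and 0.12, 0.06 and 0.14, and 0.05 and 0.24. Quantile normalisation gave an H/ACA median of 0.03 for neutrophils minus B cells. The receptor covariate gave H/ACA medians of 0.43 for neutrophils minus B cells and 0.17 for neutrophils minus alone, and gaps of -0.09 and -0.15. It turned the sign of Snora41 (0.15), Snora62 (0.19), Snora68 (-0.58), Snord11 (0.69), Snord70 (-0.01) and Snord8 (0.01) for neutrophils minus alone, and quantile normalisation that of Snora68 (-0.05). The cause was not tested.

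The replicate numbers are shared by the groups, but over all genes the deviations of same-numbered arrays correlated only at -0.07, 0.07 and -0.15. Whether same-numbered arrays shared a culture day or batch is not stated, and these correlations cannot show it. With the replicate block 1 member passed for neutrophils minus alone, and the share of all genes passing in that fit was not counted. The block moved no count in the other comparisons.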

Other observations

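Small Cajal body RNAs and a further list of short RNAs stood mostly lower with B cells as well. Small Cajal body RNAs guide modification of spliceosomal RNAs, and of 5 measured 0 passed in limma, with a median of -0.37 for B cells minus alone and 3 lower at an unadjusted p under 0.05, where 2.3% of all genes were. Scarna10 stood at 8.65 and 8.76 alone, 8.28 and 8.37 beside B cells and 8.82 and 8.76 beside neutrophils, with the B-cell arrays below all others. Scarna17 stood at 11.10 and 11.27 alone, 10.72 and 10.92 beside B cells and 11.23 and 11.27 beside neutrophils, in the same order. Scarna8 did not share it, at 8.28 and 8.38 alone, 8.64 and 8.29 beside B cells and 8.67 and 8.52 beside neutrophils.

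The further list of 9 short RNAs (Rnu and Rny genes, Terc, Rpph1 and Rn7sk) had 9 of 9 lower with B cells than alone, with a median of -0.40 and 0 passing in limma. At an unadjusted p under 0.05, 3 were lower, where 2.3% of all genes were. These were Rpph1, Rnu3a and Rnu5g. Rnu3a is the snoRNA U3 given above, and the signal of Rnu5g, from 3.58 to 4.61, was near the lowest value of the data, 3.04. Rpph1, the RNA of the tRNA-processing enzyme RNase P, stood at 12.16 and 12.32 alone, 11.66 and 12.03 beside B cells and 12.05 and 12.04 beside neutrophils. Terc, the telomerase RNA, which carries an H/ACA domain, stood at 13.09 and 13.07 alone, 13.02 and 12.88 beside B cells and 13.06 and 13.14 beside neutrophils. The 472 microRNA genes measured had medians of 0.02 for B cells minus alone, -0.02 for neutrophils minus alone and -0.04 for neutrophils minus B cells.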
